A study of Mus musculus with 3 samples.

Results

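The genes described here encode 5 families of growth factors, their cell-surface receptors and the binding proteins that hold them: fibroblast growth factors (FGF), platelet-derived growth factors (PDGF), insulin-like growth factors (IGF), hepatocyte growth factor (HGF) and vascular endothelial growth factors (VEGF). They were taken by gene symbol from the protein-coding rows of the deposited count table, which gave 44 genes of 21760, 16787 of them protein coding. RNA was sequenced from mouse cornea in 3 libraries, 1 per group. In the PNU-282987 group, eyes were treated 3 times a day with drops of this compound, which activates the α7 nicotinic acetylcholine receptor. Whether surgery preceded the drops is not stated in the labels. In the excision group the lacrimal gland, the source of most tear fluid, had been removed, a surgical model of dry eye. Sham mice were cut in that region but kept their glands. The labels give neither strain, age and sex nor the number of mice or any pooling behind a library. The study concerned the role of the α7 receptor in dry eye.

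These ligands bind receptor tyrosine kinases, which dimerise and signal through the RAS-ERK, PI3-kinase and phospholipase C routes. In the cornea, growth factors made by stromal cells act on receptors of the overlying epithelium, and this exchange is known for its part in epithelial renewal and wound closure. FGFs need heparan sulfate chains to engage their receptors, IGFs circulate bound to IGF binding proteins, and VEGFs act on blood and lymphatic vessels, which the healthy cornea lacks.

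Each group had 1 library, so the spread between animals is unknown, no test was made and every ratio compares 2 libraries, not 2 conditions. Levels are given as CPM, counts scaled to a common library size. The terms higher and lower are used as calls where a ratio reached 2-fold and its 95% interval, which covers counting error only, did not include equal levels. A smaller fold is given as a value and is not a call. Of the 44 genes, 31 had at least 20 counts in at least 1 library and were measured by this rule. For 5 of the 31 the minimum was met only in libraries where the gene is high, and the filter itself favoured a difference. These were Igfbp3 (PNU-282987 only), Flt4 (excision only), Vegfd (PNU-282987 and excision), Fgf18 (excision and sham) and Pdgfd (PNU-282987 and sham). All 5 were called, so shares of members called are given as a description and nothing is read from them. The same limit holds for the marker and partner lists below, some of whose genes met the minimum only in libraries where they are high. The other 13 genes had at most 11 counts in any library. Among measured genes, 13 were higher or lower in at least 1 comparison and 18 in none.

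Total counts were 39616004 for PNU-282987, 37692972 for excision and 37703843 for sham. Corneal epithelial markers, 13 of 14 listed being in the table and none at 0 in any library, summed to 96185 CPM in PNU-282987, 80510 CPM in excision and 84784 CPM in sham. Markers of other tissues differed between libraries. Lens markers summed to 809 CPM in PNU-282987, 171 CPM in excision and 898 CPM in sham, and those of the corneal endothelium to 2028, 1313 and 2229 CPM in PNU-282987, excision and sham. Conjunctival, goblet cell and gland markers summed to 12813 CPM in PNU-282987, 10418 CPM in excision and 8311 CPM in sham. Their largest counts were those of Aqp5 and Krt13, abundant in all 3 libraries. Goblet and gland genes differed far more, with 2980, 11 and 1 counts of Muc5ac and 3801, 4 and 5 of Gp2 in PNU-282987, excision and sham. At 0 were Muc5b, Scgb1b2, Scgb2b2 and Tff2 in excision, Esp6, Scgb1b2, Scgb2b2, Tff1 and Tff2 in sham, and none in PNU-282987. In such bulk RNA, fewer cells of a type and less RNA per cell cannot be told apart.

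Between excision and sham, growth factor genes were called in both directions. Of the 31 measured, 8 were lower in excision (25.8%, where 5.48% of all 14180 genes tested were lower) and 3 were higher (9.68%, against 4.01% of all genes tested). Over all genes tested, 9.49% were called in either direction. The 8 lower genes were Fgf1, Fgf9, Fgf10, Fgf11, Fgfr1, Pdgfd, Igf1 and Kdr, and the 3 higher genes were Igfbp6, Flt4 and Vegfd. The median log2 ratio was -0.25 over the measured members and -0.0028 over all genes tested.

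Between PNU-282987 and excision, 5 measured members were higher (16.1%, against 3.90% of all genes tested) and 3 were lower (9.68%, against 5.62%), where 9.52% of all genes tested were called in either direction. The higher genes were Fgf1, Fgf9, Fgf10, Pdgfd and Igfbp3, and the lower genes were Fgf18, Igfbp6 and Flt4. The median log2 ratio was -0.13 over the measured members and 0.0078 over all genes tested. Between PNU-282987 and sham, 2 members were higher, Igfbp3 and Vegfd, where 2.58% of all genes tested were higher, and both are among the genes that the filter favoured. With a mean of at least 20 counts as the filter, 0 members were higher. In this comparison 3 members were lower, Fgf11, Fgf18 and Igf1 (9.68%, against 4.96%). Over all genes tested, 7.54% were called in either direction here. The median log2 ratio was -0.39 over the measured members, against 0.00011 over all genes tested. The 3 comparisons share libraries pairwise, so a gene set apart in the excision library alone appears in the first and the second of them.

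**Figure D1:**
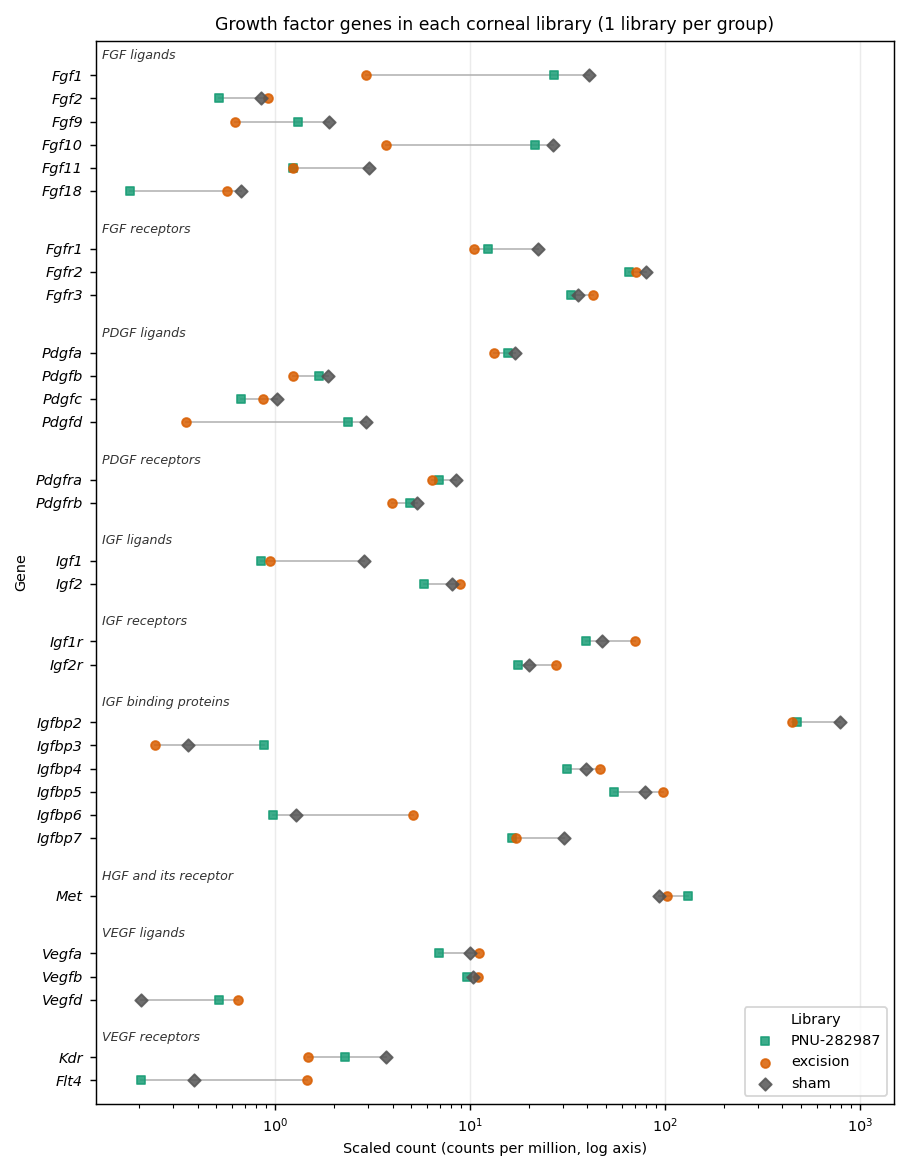
Scaled counts (CPM, log axis) of the 31 measured growth factor genes in the PNU-282987, excision and sham libraries, 1 point per library, grouped by role. Fgf1, Fgf10, Fgf9 and Pdgfd lie lowest in excision, Igfbp6 and Flt4 highest, and Igfbp2 is far to the right of the others at 447 to 792 CPM.

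The genes that stood apart in the excision library from both other libraries were 4 that were lower, Fgf1, Fgf9, Fgf10 and Pdgfd, and 2 that were higher, Flt4 and Igfbp6. Upstream sequence is shown for 4 of these 6, as genes set apart in the same library, so that it can be read beside their values. Each is the 250 bases before the RefSeq transcription start on build GRCm38.p6, 5′ to 3′ on the gene's strand, and none holds a base of a GENCODE M21 exon of the gene. The RefSeq start equals a GENCODE start for Fgf10 and Fgf9, whose windows also lie in introns of longer transcripts, while for Pdgfd and Igfbp6 the first GENCODE start lies 98 and 176 bases further downstream, so their windows may not border the start in use. Capitals mark a match to a searched motif.
Fgf10, chr13:118714449-118714698, plus strand: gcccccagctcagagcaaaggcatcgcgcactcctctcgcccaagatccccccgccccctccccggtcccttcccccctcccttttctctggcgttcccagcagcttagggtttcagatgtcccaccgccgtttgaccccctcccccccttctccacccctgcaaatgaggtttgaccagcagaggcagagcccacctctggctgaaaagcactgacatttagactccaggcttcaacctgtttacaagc
Fgf9, chr14:58072436-58072685, plus strand: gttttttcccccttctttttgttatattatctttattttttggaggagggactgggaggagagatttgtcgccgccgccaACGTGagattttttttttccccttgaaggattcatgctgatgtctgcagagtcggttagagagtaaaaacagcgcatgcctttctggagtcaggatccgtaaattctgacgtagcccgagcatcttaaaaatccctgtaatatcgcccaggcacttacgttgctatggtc
Pdgfd, chr9:6168236-6168485, plus strand: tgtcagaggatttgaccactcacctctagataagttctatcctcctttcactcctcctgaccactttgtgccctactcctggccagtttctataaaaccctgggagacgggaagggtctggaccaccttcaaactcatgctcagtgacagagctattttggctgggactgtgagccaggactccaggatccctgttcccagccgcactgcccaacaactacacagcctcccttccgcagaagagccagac
Igfbp6, chr15:102143936-102144185, plus strand: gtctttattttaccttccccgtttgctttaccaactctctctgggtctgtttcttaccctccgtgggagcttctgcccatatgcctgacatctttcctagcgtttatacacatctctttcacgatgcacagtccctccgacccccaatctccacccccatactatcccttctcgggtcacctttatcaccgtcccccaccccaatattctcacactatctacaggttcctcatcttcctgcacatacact
The motifs searched on both strands were the hypoxia response core ACGTG, an interferon response core GAAANNGAA, the gamma-activated site TTCNNNGAA and the AP-1 site TGANTCA. The only match in these 4 windows was 1 hypoxia response core upstream of Fgf9. That core was found in 16.6% of all 32851 promoter windows of this length, the interferon response core in 7.13%, the gamma-activated site in 7.02% and the AP-1 site in 6.75%. Over the 34 windows of the 27 measured members with a RefSeq promoter, they were found in 7, 1, 0 and 3 windows. Letters G and C made up 61.2% of the Fgf10 window, 44.8% of the Fgf9 window, 53.6% of the Pdgfd window and 49.6% of the Igfbp6 window, where the median was 62% for the members' windows and 52.4% for all. A match is a description of letters and does not show binding.

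Of 6 measured FGF ligand genes, 4 were lower in excision than in sham, where 5.48% of all genes tested were lower. In PNU-282987 against excision 3 were higher (3.90% of all genes tested were) and 1 was lower (5.62% of all genes tested). That lower gene, Fgf18, is among those that the filter favoured. Fgf1 (gene ID 14164) encodes the acidic FGF that binds all FGF receptors, and it had 1044 counts in PNU-282987, 108 in excision and 1594 in sham. Excision stood far below both other libraries, 14.0-fold lower than sham (95% interval 11.5 to 17.2), and PNU-282987 was 9.24-fold higher than excision (7.57 to 11.4). PNU-282987 was 1.52-fold lower than sham (1.40 to 1.64), under the 2-fold limit. Fgf10 (gene ID 14165), a mesenchymal ligand that acts on epithelium and is required in mice for the lacrimal gland to form, had 838 counts in PNU-282987, 137 in excision and 1035 in sham. It showed the same order of libraries as Fgf1, with excision 7.18-fold lower than sham (6.0 to 8.65) and PNU-282987 5.85-fold higher than excision (4.88 to 7.06).

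Fgf9 (gene ID 14180), a secreted ligand of the FGFR2 and FGFR3 receptors, had 51 counts in PNU-282987, 23 in excision and 74 in sham. Excision was again the lowest library, 3.06-fold below sham (1.89 to 5.12), and PNU-282987 was 2.12-fold above excision (1.27 to 3.63). Fgf11 (gene ID 14166) belongs to the FGF homologous factors, which stay inside the cell and do not act through FGF receptors. It had 48 counts in PNU-282987, 46 in excision and 118 in sham, so both other libraries were below sham, by 2.44-fold in PNU-282987 (1.73 to 3.49) and by 2.44-fold in excision (1.72 to 3.51). Fgf18 (gene ID 14172), best known as a paracrine ligand of cartilage and bone, had 7 counts in PNU-282987, 21 in excision and 26 in sham, which placed PNU-282987 3.69-fold below sham (1.56 to 10.1) and 3.14-fold below excision (1.29 to 8.74). Fgf2, the basic FGF used by many wound-healing cells, had 20, 34 and 33 counts in PNU-282987, excision and sham and was not called in any comparison. It overlaps Nudt6 on the opposite strand, and whether counting used strand is not stated.

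The remaining 9 FGF ligand genes were near the detection limit. Fgf7, the keratinocyte growth factor that stromal cells of a wounded cornea are known to make, had 5 counts in PNU-282987, 6 in excision and 4 in sham. Fgf16 had 0 counts in PNU-282987, 1 in excision and 8 in sham, and Fgf22 had 0, 5 and 0. The FGF homologous factor genes Fgf12, Fgf13 and Fgf14 had at most 4 counts in any library, as did Fgf15, Fgf17 and Fgf21. Their intervals were wide at such counts. For Fgf16, PNU-282987 was at least 2.65-fold lower than sham against a floor of 3 counts, and excision was 7.60-fold lower than sham (1.02 to 337), but the gene was below the count minimum.

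Of the FGF receptor genes, 1 of 3 measured was called, in excision against sham only, where 9.49% of all genes tested were called in either direction. Fgfr1 (gene ID 14182) had 479 counts in PNU-282987, 387 in excision and 866 in sham, and excision was 2.13-fold lower than sham (1.88 to 2.40). PNU-282987 was 1.80-fold lower than sham (1.61 to 2.01), so this receptor was highest in sham. Fgfr2, whose epithelial splice form is the receptor for FGF7 and FGF10, had 2524 counts in PNU-282987, 2648 in excision and 3105 in sham, a range within 1.22-fold. Counts per gene do not separate the splice forms. Fgfr3 had 1285 counts in PNU-282987, 1584 in excision and 1398 in sham, with PNU-282987 1.29-fold lower than excision (1.20 to 1.39). Fgfr4 had 3, 8 and 11 counts in PNU-282987, excision and sham and was not measured.

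Set per length of exon, the ligand and receptor levels of the FGF family differed in balance between libraries. Dividing CPM by the exon length of each gene in GENCODE M21, which may differ from the annotation used for counting, the 15 FGF ligand genes summed to 10.7 CPM per kb in PNU-282987, 2.70 in excision and 15.6 in sham. That sum includes Fgf11 to Fgf14, the FGF homologous factors, which do not act through FGF receptors. Fgf11 held 0.406 CPM per kb of it in PNU-282987, 0.407 in excision and 0.993 in sham. The 4 receptor genes summed to 12.2 CPM per kb in PNU-282987, 14.0 in excision and 15.0 in sham. Fgf1 made up 46.1% of the ligand level in PNU-282987 and 47.9% in sham, whereas Fgf10 led in excision with 29.7%.

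**Figure D2:**
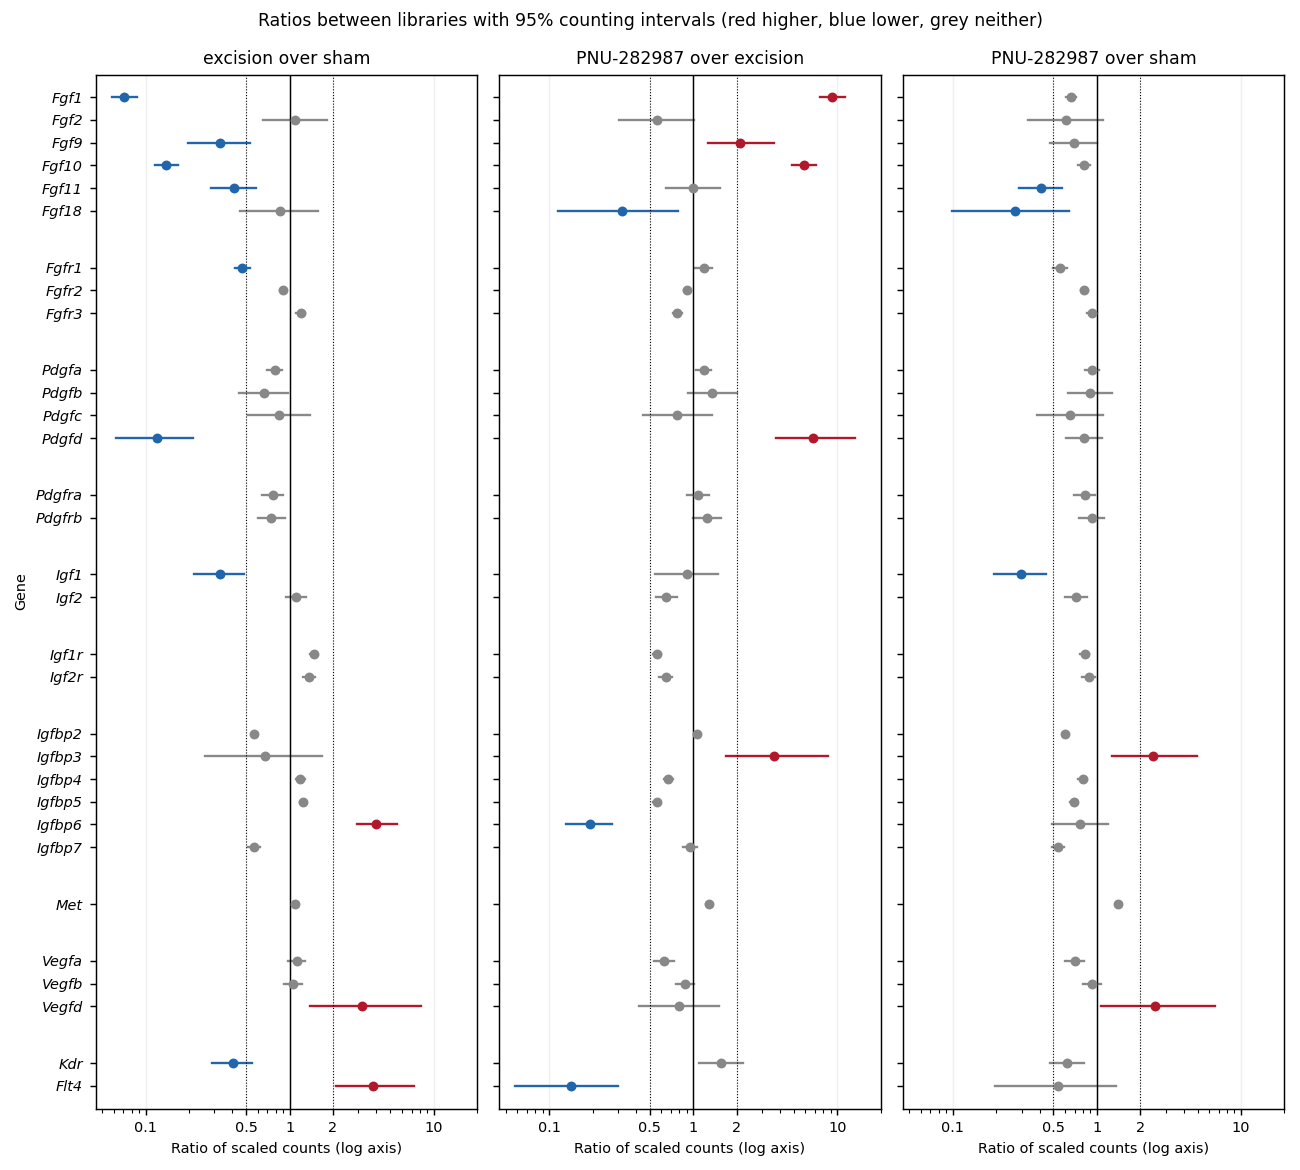
Ratios of scaled counts (log axes) for the 31 measured genes with 95% counting intervals, for excision over sham, PNU-282987 over excision and PNU-282987 over sham. Dotted lines mark 2-fold. Fgf1, Fgf10 and Pdgfd lie far left in excision over sham and far right in PNU-282987 over excision, and 5 genes are past 2-fold in PNU-282987 over sham.

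Among PDGF genes, 1 ligand stood apart. Pdgfd (gene ID 71785) encodes a ligand of the PDGF receptor beta that is secreted in latent form, and it had 92 counts in PNU-282987, 13 in excision and 114 in sham. Excision held the lowest count, 8.34-fold below sham (4.68 to 16.1) and PNU-282987 was 6.77-fold above excision (3.77 to 13.2). Pdgfa, the classical ligand of the PDGF receptor alpha, had 609 counts in PNU-282987, 494 in excision and 662 in sham and stayed within 1.27-fold. Pdgfb had 65, 46 and 73 counts and Pdgfc had 26, 32 and 40 counts in PNU-282987, excision and sham, and neither was called. Pdgfa was the most abundant PDGF ligand per length of exon, at 79.6% of the summed level in PNU-282987, 88.1% in excision and 77.5% in sham.

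The PDGF receptor genes were close between libraries. Pdgfra, a marker of mesenchymal cells, had 269 counts in PNU-282987, 238 in excision and 329 in sham, with excision 1.31-fold lower than sham (1.11 to 1.56). Pdgfrb, the receptor of pericytes and other mural cells, had 191 counts in PNU-282987, 147 in excision and 208 in sham, with excision 1.34-fold lower than sham (1.08 to 1.67). Both were thus slightly lowest in excision and under the 2-fold limit.

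Igf1 (gene ID 16000), which encodes the growth hormone-responsive ligand of the IGF1 receptor, was highest in sham. It had 33 counts in PNU-282987, 35 in excision and 112 in sham, so that PNU-282987 was 3.37-fold lower than sham (2.27 to 5.14) and excision 3.04-fold lower (2.06 to 4.58). Igf2, the second ligand, had 225 counts in PNU-282987, 330 in excision and 314 in sham, and PNU-282987 was 1.53-fold lower than excision (1.29 to 1.83). Per length of exon Igf2 was the larger of the pair in every library, at 1.01 CPM per kb in PNU-282987, 1.55 in excision and 1.40 in sham, where Igf1 had 0.0858, 0.0952 and 0.290 CPM per kb. Reads of Igf2 and of its antisense gene Igf2os could not be told apart without a strand setting.

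The IGF receptor genes were both highest in excision, under the 2-fold limit. Igf1r, the signalling receptor for IGF1 and IGF2, had 1519 counts in PNU-282987, 2587 in excision and 1859 in sham. Its ratio was 1.46 for excision over sham (1.38 to 1.55), and PNU-282987 was 1.78-fold lower than excision (1.67 to 1.90). Igf2r, which takes up and clears IGF2, had 687 counts in PNU-282987, 1022 in excision and 787 in sham, and it overlaps the antisense transcript Airn. PNU-282987 was 1.56-fold lower than excision for Igf2r (1.41 to 1.72).

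The IGF binding protein genes went in different directions. Igfbp6 (gene ID 16012), whose product prefers IGF2 over IGF1, had 38 counts in PNU-282987, 190 in excision and 50 in sham. Excision was the high library, 4.0-fold above sham (2.91 to 5.57), and PNU-282987 was 5.23-fold below excision (3.68 to 7.62). Igfbp3 (gene ID 16009), the main IGF carrier of serum, had 34 counts in PNU-282987, 9 in excision and 14 in sham. PNU-282987 was the high library, 3.61-fold above excision (1.70 to 8.56) and 2.44-fold above sham (1.28 to 4.93). Conjunctival, goblet cell and gland markers were also highest in that library. Of 17 measured, 13 were higher in PNU-282987 than in sham (2.58% of all genes tested were) and 9 higher than in excision (3.90% of all genes tested). Muc5ac, Muc5b, Gp2, Tff1, Scgb1b2, Scgb2b2 and Esp6 met the count minimum in PNU-282987 only, so the filter favoured their calls. The part of such tissue in the Igfbp3 difference was not tested.

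Igfbp2 (gene ID 16008) was the most abundant gene of all 31 per length of exon in every library. It had 18497 counts in PNU-282987, 16582 in excision and 30912 in sham, which left PNU-282987 1.66-fold lower than sham (1.63 to 1.69) and excision 1.77-fold lower (1.74 to 1.81). At 258 CPM per kb in PNU-282987, 242 in excision and 429 in sham, it made up 89.3%, 84.1% and 89.9% of the level summed over the 6 measured binding protein genes. Igfbp7, which binds IGFs weakly and is found in vessel walls and matrix, was also highest in sham, with 635 counts in PNU-282987, 637 in excision and 1187 in sham. Igfbp4 and Igfbp5 were highest in excision. Igfbp5, a binding protein that attaches to matrix, had 2116 counts in PNU-282987, 3626 in excision and 3069 in sham, and PNU-282987 was 1.79-fold lower than excision (1.70 to 1.89). Igfbp4 had 1214, 1727 and 1535 counts in PNU-282987, excision and sham, with PNU-282987 1.49-fold lower than excision (1.38 to 1.60).

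Met, the HGF receptor of epithelial cells, was well covered while its ligand was not. Met (gene ID 17295) had 5112 counts in PNU-282987, 3804 in excision and 3649 in sham, and PNU-282987 was higher than sham with a ratio of 1.41 (1.35 to 1.47). Hgf had 0 counts in PNU-282987, 2 in excision and 0 in sham. The limit that 0 counts leave, taken as 3 counts, was 0.0773 CPM in PNU-282987 and 0.0768 CPM in sham.

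The VEGF ligand genes that act on blood vessels were not called in any comparison. Vegfa, the main angiogenic ligand, had 270 counts in PNU-282987, 412 in excision and 388 in sham, and PNU-282987 was 1.60-fold lower than excision (1.37 to 1.87). Vegfb had 373, 406 and 405 counts in PNU-282987, excision and sham. The lymphatic ligand genes were sparse. Vegfd (gene ID 14205) had 20 counts in PNU-282987, 24 in excision and 8 in sham, so that sham was the low library, with ratios to it of 2.51 in PNU-282987 (1.06 to 6.60) and 3.16 in excision (1.37 to 8.13). Vegfc had 3, 11 and 7 counts in PNU-282987, excision and sham, below the count minimum, and PNU-282987 was 3.84-fold below excision with a wide interval (1.01 to 21.4).

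The VEGF receptor genes differed in opposite directions. Flt4 (gene ID 14257), which encodes VEGFR3, the receptor of lymphatic vessels for VEGFC and VEGFD, had 8 counts in PNU-282987, 54 in excision and 15 in sham. Excision was the high library, 3.79-fold above sham (2.11 to 7.23), and PNU-282987 was 7.06-fold below excision (3.34 to 17.2). Kdr (gene ID 16542), which encodes VEGFR2, the main signalling receptor of blood vessels, had 89 counts in PNU-282987, 55 in excision and 144 in sham, and excision was 2.49-fold below sham (1.81 to 3.46). Flt1, whose soluble product is known to keep the mouse cornea free of vessels, had 2, 8 and 5 counts in PNU-282987, excision and sham and was not measured.

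**Figure D3:**
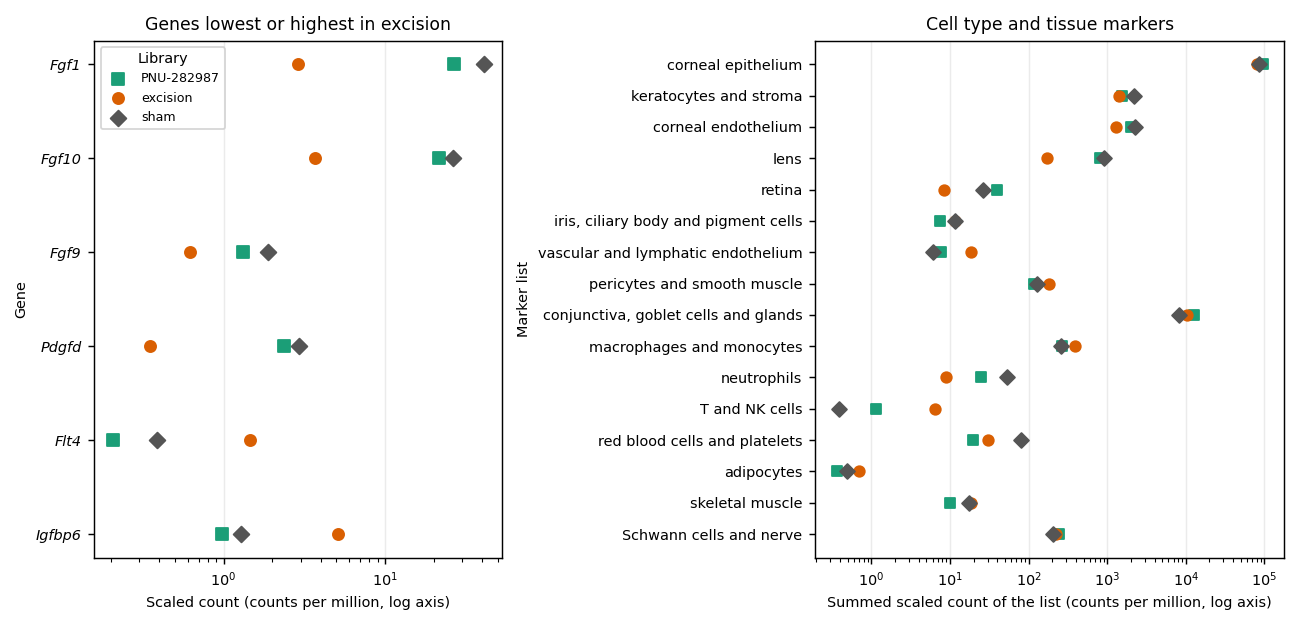
Left, scaled counts (CPM, log axis) of the 6 genes that stood apart in excision from both other libraries. Right, summed scaled counts (CPM, log axis) of 16 marker lists. Excision lies lowest for the lens, retina and corneal endothelium lists and highest for the vascular and lymphatic list.

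Markers of other tissue differed in the same libraries as these genes. Of 12 measured corneal endothelial markers, 8 were lower in excision than in sham and 7 were higher in PNU-282987 than in excision. Over all genes tested, 5.48% were lower in excision than in sham and 3.90% higher in PNU-282987 than in excision. For lens markers 17 of 18 measured were lower in excision than in sham and 17 of 18 higher in PNU-282987 than in excision, and Gja3 and Mip were at 0 in excision. For retina markers these counts were 8 and 11 of 12, with summed levels of 40.0 CPM in PNU-282987, 8.49 CPM in excision and 26.0 CPM in sham. Fgf1, Fgf9, Fgf10 and Pdgfd were lowest in the library in which these 3 lists were lowest. Neutrophil markers and stromal markers were lowest in excision too. Neutrophil markers summed to 24.95 CPM in PNU-282987, 8.84 CPM in excision and 53.0 CPM in sham. Of 7 measured, 7 were lower in excision than in sham. In PNU-282987, 6 of 7 were also lower than in sham (4.96% of all genes tested were). The 2 higher in PNU-282987 than in excision were S100a9 (617, 34 and 718 counts in PNU-282987, excision and sham) and Cd177 (25, 10 and 70). Mpo (131, 112 and 515 counts) and Elane (156, 132 and 602) were lower than sham in both. Ly6g had 1, 0 and 1 counts. The part of such tissue and cells in the differences of the 4 genes was not tested.

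Of 16 keratocyte and stromal markers, 6 were lower and 1 higher in excision than in sham, where 5.48% and 4.01% of all genes tested were. The list summed to 1563 CPM in PNU-282987, 1417 CPM in excision and 2171 CPM in sham. Fgfr1, Igf1, Igfbp2 and Igfbp7 were likewise highest in sham, and the part of stromal tissue in this was not tested. Vascular and lymphatic markers summed to 7.70 CPM in PNU-282987, 18.6 CPM in excision and 6.07 CPM in sham, where Esam was at 0 in PNU-282987 and Emcn and Tek were at 0 in sham. Of 9 measured, 4 were higher in excision than in sham (4.01% of all genes tested were) and 6 were lower in PNU-282987 than in excision (5.62% of all genes tested). Lyve1, Mmrn1, Cldn5, Pecam1 and Plvap met the count minimum in excision only, so the filter favoured such calls. The lymphatic marker genes Lyve1, also expressed by macrophages, and Prox1 had 1, 23 and 2 counts and 12, 16 and 4 counts in PNU-282987, excision and sham. Macrophage and monocyte markers, 8 of 17 higher in excision than in sham, summed to 270 CPM in PNU-282987, 392 CPM in excision and 256 CPM in sham, with none at 0. T and NK cell markers summed to 1.13 CPM in PNU-282987, 6.38 CPM in excision and 0.384 CPM in sham. Of 5 measured, 5 were higher in excision than in sham and 4 were lower in PNU-282987 than in excision. All 5 (Cd8a, Cd3g, Gzma, Nkg7 and Lck) met the count minimum in excision only, so the filter favoured these calls and nothing is read from their number. Cd3g and Klrd1 were at 0 in PNU-282987, and Cd3d, Cd3g, Cd4, Cd8a and Klrd1 were at 0 in sham. Flt4 and Igfbp6 were highest in excision as these lists were, and the part of these cells in their differences was not tested. Kdr went the other way from the vascular and lymphatic list and was lowest in excision, where corneal endothelial markers were lowest too. The part of either tissue in the Kdr difference was not tested.

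Genes that act with these families were taken from 10 lists of pathway partners, with some genes on more than one list. Of 34 measured adaptor, RAS, RAF, MEK, ERK, PI3-kinase and AKT genes, 1 was higher in excision than in sham (2.94%, against 4.01% of all genes tested). It was Pik3cd, the leukocyte-rich PI3-kinase subunit, with 94 counts in PNU-282987, 172 in excision and 61 in sham (2.97-fold, 2.20 to 4.04). T and NK cell markers and macrophage markers were highest in the same library, and their part in this was not tested. Gab2, a docking adaptor, had 30, 41 and 81 counts in PNU-282987, excision and sham and was lower in PNU-282987 than in sham (2.68-fold, 1.75 to 4.23). The list medians were 0.10 for excision over sham, 0.04 for PNU-282987 over excision and 0.13 for PNU-282987 over sham on the log2 scale.

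The lists of genes that respond to such signalling had 1 or 2 calls each per comparison, too few to set apart from the 9.49% (excision against sham), 9.52% (PNU-282987 against excision) and 7.54% (PNU-282987 against sham) of all genes tested. Of 15 measured feedback inhibitors, 1 was higher in excision than in sham, Spred3, and 1 was higher and 1 lower in PNU-282987 than in excision, Il17rd and Spry4. Spred3 was also higher in PNU-282987 than in sham, on 22 counts in PNU-282987, 21 in excision and 8 in sham. Il17rd, a membrane inhibitor of FGF signalling, had 83 counts in PNU-282987, 30 in excision and 49 in sham, so PNU-282987 was 2.64-fold above excision (1.72 to 4.16). Of 17 measured transcription targets of ERK, Fosb, an immediate early gene, had 77 counts in PNU-282987, 318 in excision and 105 in sham. It was 3.19-fold higher in excision than in sham (2.55 to 4.01) and 4.32-fold lower in PNU-282987 than in excision (3.36 to 5.62). Plaur, the urokinase receptor, was 3.39-fold lower in PNU-282987 than in sham (1.95 to 6.21) and 2.30-fold lower in excision than in sham (1.41 to 3.87). The ERK target list medians were 0.26 for excision over sham, -0.26 for PNU-282987 over excision and -0.11 for PNU-282987 over sham.

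Among partners of the VEGF system, 4 of 13 measured co-receptors and modulators were lower in excision than in sham and none was higher. The share lower was 30.8%, against 5.48% of all genes tested. Angpt2, a ligand of the vessel receptor TIE2, had 398 counts in PNU-282987, 53 in excision and 687 in sham (excision 12.3-fold lower than sham, 9.31 to 16.6). Adamts3, the protease that activates VEGFC, had 17 counts in PNU-282987, 4 in excision and 55 in sham, and Nrp2, a co-receptor for lymphatic VEGFs, had 189, 76 and 221 counts. Thbs1, an inhibitor of vessel growth, was 2.41-fold lower in excision than in sham (2.22 to 2.62). Angpt2, Adamts3, Nrp2 and Thbs1 were lowest in the library in which lens and corneal endothelial markers were lowest. The part of such tissue in their differences was not tested. Between PNU-282987 and excision, 4 of these 13 were higher (30.8%, against 3.90% of all genes tested) and 3 lower (23.1%, against 5.62%). The largest ratio was that of Angpt2, 7.18-fold higher (5.38 to 9.75). Pecam1, a vessel adhesion molecule, had 10 counts in PNU-282987, 36 in excision and 19 in sham and was among the lower. Adamts3 and Ccbe1, which act together on VEGFC, were lower in PNU-282987 than in sham (15.4% of the list, against 4.96% of all genes tested). Pecam1 met the count minimum in excision only and Adamts3 in sham only, so the filter favoured their calls. The list medians were -0.17 for excision over sham, 0.14 for PNU-282987 over excision and -0.22 for PNU-282987 over sham.

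Of 15 measured heparan sulfate proteoglycans, 3 were lower in excision than in sham: Gpc4 (834 counts in PNU-282987, 379 in excision and 1205 in sham), Gpc6 (56, 34 and 99 counts) and Sdc2 (680, 364 and 995 counts). Between PNU-282987 and excision, Gpc4 was 2.10-fold higher (1.86 to 2.38) and 3 proteoglycan genes were lower. In this comparison 3.90% of all genes tested were higher and 5.62% were lower. Col18a1, a basement membrane collagen, had 20 counts in PNU-282987, 48 in excision and 30 in sham (2.51-fold lower, 1.46 to 4.47), and Srgn, the proteoglycan of leukocyte granules, had 30, 71 and 40 counts (2.48-fold lower, 1.59 to 3.93). Agrn, the basement membrane proteoglycan agrin, had 2590 counts in PNU-282987, 5359 in excision and 3730 in sham and was 2.16-fold lower in PNU-282987 than in excision (2.06 to 2.27). Of 16 measured heparan sulfate enzymes, 3 were lower in excision than in sham (18.75%, against 5.48% of all genes tested). The largest ratio was that of Sulf1, a sulfatase that edits the chains outside the cell. It had 294 counts in PNU-282987, 97 in excision and 511 in sham (5.01-fold lower, 4.02 to 6.29). Sulf1 was 2.90-fold higher in PNU-282987 than in excision (2.30 to 3.68). The other lower enzyme genes were Hs3st5, with 34 counts in PNU-282987, 8 in excision and 38 in sham, and Ext1, with 351, 222 and 483 counts. Gpc4, Gpc6, Sdc2, Sulf1, Hs3st5 and Ext1 were lowest in excision, as lens and corneal endothelial markers were. The part of such tissue in their differences was not tested. Hs3st5 was also higher in PNU-282987 than in excision, but it met the count minimum in PNU-282987 and sham only, so the filter favoured its calls. Sulf2, a relative of Sulf1, had 26, 58 and 80 counts in PNU-282987, excision and sham and was lower in PNU-282987 than in sham (3.06-fold, 1.94 to 4.96) and than in excision (2.33-fold, 1.45 to 3.86). The medians of the proteoglycan list were -0.23 for excision over sham, -0.11 for PNU-282987 over excision and -0.52 for PNU-282987 over sham, and those of the enzyme list were -0.13, 0.15 and -0.02.

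The other partner lists had at most 2 calls in a comparison, too few to set apart from the shares of all genes tested given above. Of 6 measured FGF co-receptors and binding proteins, Fgfrl1, a receptor without a kinase, was 2.53-fold lower in excision than in sham (2.02 to 3.18), and none passed in the comparisons with PNU-282987. Of 11 measured IGF accessory genes, Irs1, the docking protein of the insulin and IGF1 receptors, had 26 counts in PNU-282987, 24 in excision and 71 in sham, and it was lower than sham by 2.72-fold in PNU-282987 (1.71 to 4.43) and by 2.81-fold in excision (1.75 to 4.67). Igf1 was likewise lower in PNU-282987 and in excision than in sham. Igf2bp2, an RNA-binding protein gene, had 13, 27 and 28 counts in PNU-282987, excision and sham and was lower in PNU-282987 than in both others. Of 12 measured PDGF processing genes, Pcsk5, a proprotein convertase, and Slc9a3r2, a scaffold protein, were lower in excision than in sham, and Pcsk5 was higher in PNU-282987 than in excision. None of 12 measured HGF activation genes was called in any comparison.

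**Figure D4:**
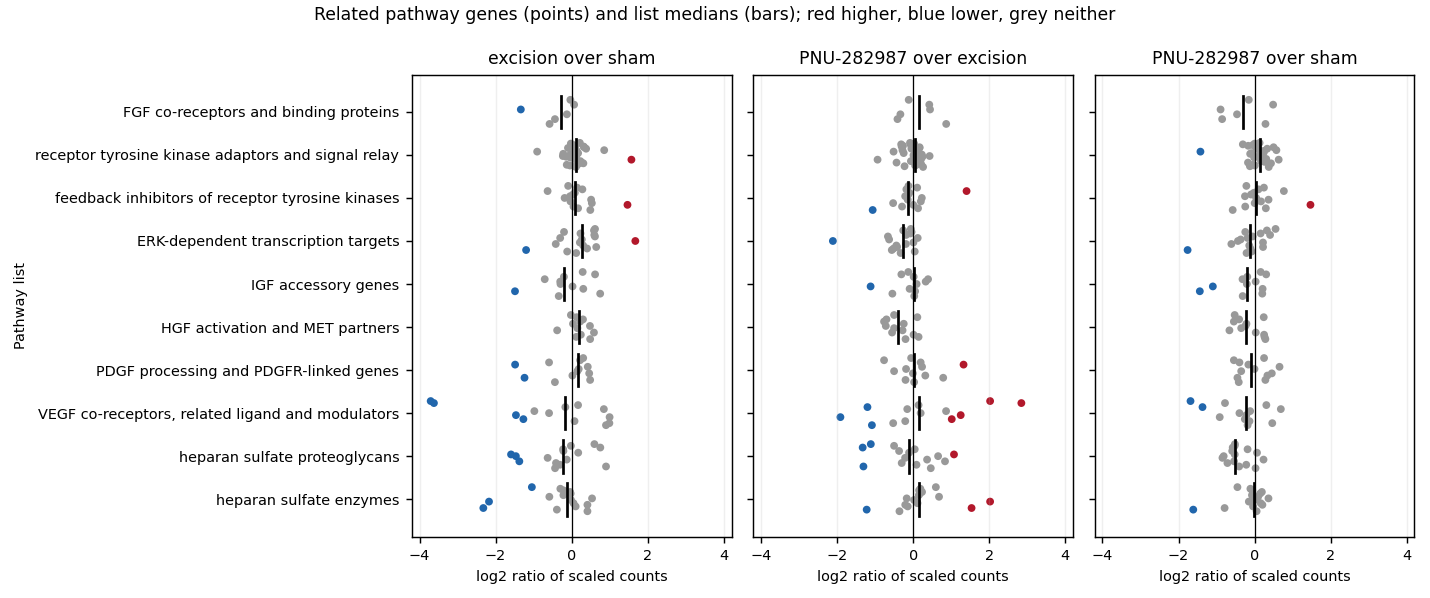
log2 ratios of the measured genes of 10 partner lists (points) with list medians (bars), for excision over sham, PNU-282987 over excision and PNU-282987 over sham. The HGF activation list has no gene past 2-fold, and the points farthest left in excision over sham are Adamts3 and Angpt2 of the VEGF list.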

How the data were processed

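Corneal RNA of mice was sequenced in 3 libraries, 1 per group. The labels' protocols name TRIzol for extraction and the VAHTS Universal V6 kit for library construction. The authors deposited a single count table, whole reads by gene, which was used unchanged, and column names were matched to sample titles. HTSeq and R 3.2.0 are credited to the submitters' processing notes. Aligner, build, annotation and strand setting: not given in the sources used here. Overlapping genes can therefore share reads.

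Library sizes were adjusted by TMM (edgeR 4.0.16, R 4.3.3), with factors of 0.980 in PNU-282987, 0.985 in excision and 1.04 in sham. Python 3.11.15, pandas 2.3.3 and SciPy 1.17.1 did the rest. The minimum was 20 counts in any 1 library, met by 14180 genes. Ratios of scaled counts, with no pseudocount, carry exact conditional binomial (Clopper-Pearson) intervals at 95%. Where a count was 0, a floor of 3 counts made the ratio a bound, and pairs with 3 counts or fewer on both sides have no ratio. Without molecular identifiers reads may be copies of one molecule, so these intervals and floors reflect counting error alone. The scheme was tried on data simulated with counting error alone. That trial held no spread between animals and no copied reads, so it cannot show how the calls behave under either. Exon lengths were unions over GENCODE M21 transcripts, found for all 44 genes, and promoters were taken from a RefSeq table on GRCm38.p6.

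Every measured member was named, with ratios for those past 2-fold and for receptors. Of each partner list, up to 4 genes with the largest ratios could be named. Ratios of other members, and Lyve1 and Prox1, were added after their values were seen. The members and lists were chosen with earlier results of these data known.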

Additional observations from a re-analysis of the deposited data

How the results depend on the processing

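Direction was kept by the median log2 ratio of the members in every comparison under 3 other scalings (total counts, DESeq2 1.42.0 size factors, and TMM factors computed without other-tissue markers) and 3 other filters. Of 60 counts and medians under the alternatives tried, 53 stayed close to the values reported and 7 moved. With a minimum of 100 counts, excision against sham had 1 higher member, PNU-282987 against excision had 3 higher and 1 lower, and PNU-282987 against sham had 0 higher. With a mean of at least 20 counts over the libraries, PNU-282987 against sham also had 0 higher, since Igfbp3 and Vegfd fell below the filter. With 1.5-fold as the limit, 8 members were lower in PNU-282987 than in excision and 8 lower in PNU-282987 than in sham. Under the 3 other scalings, 0 of 93 member ratios changed sign where counted as higher or lower and 0 calls changed, although 6 ratios under total counts lay outside their counting interval. No paired analysis was possible because each group had 1 library. For genes under about 20 counts only large differences could be seen at this depth.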

Other observations

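Genes on the opposite strand of 3 members were counted in the same table, and were chosen for their position. Nudt6, which overlaps Fgf2, had 194 counts in PNU-282987, 201 in excision and 184 in sham. Airn, which overlaps Igf2r, had 62, 85 and 86 counts in PNU-282987, excision and sham, far below those of Igf2r. Igf2os, which overlaps Igf2, had 7, 1 and 15 counts in PNU-282987, excision and sham. Without a strand setting, reads cannot be assigned between the partners.

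Some genes of the feedback inhibitor and ERK target lists had no call, whereas Fosb, Plaur, Il17rd, Spry4 and Spred3 of the same lists were called, as given above. ERK activity itself was not measured. Dusp6, a phosphatase of ERK, had 1470 counts in PNU-282987, 1307 in excision and 1248 in sham. Spry1, a feedback inhibitor of FGF signalling, had 1824, 2136 and 2177 counts in PNU-282987, excision and sham, and the ETS factor gene Etv5 had 251, 221 and 287. Pgf, the placenta growth factor gene of the VEGF partner list, had 3, 7 and 1 counts in PNU-282987, excision and sham, below the count minimum. These genes were named after their values were seen.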
